A study of Saccharomyces cerevisiae with 7 samples.

Results

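The genes described here encode 9 mannoproteins of the cell wall of the budding yeast Saccharomyces cerevisiae, namely SPI1 (YER150W), SED1 (YDR077W), HSP150 (YJL159W), CWP1 (YKL096W), CWP2 (YKL096W-A), CCW12 (YLR110C), CCW14 (YLR390W-A), TIP1 (YBR067C) and TIR1 (YER011W). They were chosen by gene symbol, and all 9 were found among the 5470 named genes on the arrays, each with 1 spot and a value on every array. Two-channel arrays were hybridised with total RNA from a glucose-fed culture followed through the diauxic shift, the passage from fermenting glucose to respiring the ethanol made from it. One channel of each of the 7 arrays held the common reference, RNA labelled 0.14 OD and 19 g/L glucose. The other held the culture at 0 h (0.14 OD, 19 g/L), 9.5 h (0.46 OD, 18.7 g/L), 11.5 h (0.8 OD, 17.6 g/L), 13.5 h (1.8 OD, 14 g/L), 15.5 h (3.7 OD, 7.5 g/L), 18.5 h (6.9 OD, 0.2 g/L) or 20.5 h (7.3 OD, 0 g/L). The sources used here do not give the strain, the medium or the number of flasks.

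The yeast wall is a net of beta-glucan and a little chitin, covered on the outside by proteins that carry long mannose chains. Most of these proteins are first held at the plasma membrane by a glycolipid (GPI) anchor and are then joined to glucan, while proteins of the PIR family are tied to glucan directly. Cells build new wall as buds grow, and known wall proteins differ in whether they are made mainly by growing cells or by cells that meet stress or stop dividing. HSP150 is a PIR protein and the other members are GPI proteins. By what the genes are known for, 3 were set down as late-rising, namely the stationary-phase genes SPI1 and SED1 and the heat-inducible HSP150. The other 6 were set down as growth-linked. That name is loose, since TIP1 is known for induction by temperature shock and TIR1 by cold and by lack of oxygen. Both classes were set with earlier results of these data known.

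Each value is the log2 of culture over reference on an array centred on its median, so that a value of 1 is 2-fold above the reference. The direction of the ratio is likely and not certain, since the dyes are not named. It was taken from the order of the channels in the labels, and with that sign 101 ribosomal protein genes had a median of -1.90 at 20.5 h while 8 genes known as glucose-repressed had a median of 3.72. Each time point was 1 array, without replicates, and each array has a lot label of its own, so lot and time cannot be told apart. The arrays held 6048 to 6342 values, and the SD between spots of 1 gene, over genes spotted more than once, ran from 0.19 at 13.5 h to 0.45 at 18.5 h. At 0 h, where both channels carry the same label, the 9 genes lay between 0.05 and 0.35. All 9 were above 0 there, as were 53.2% of all genes tested, and 4 of the 9 exceeded the spot SD of 0.21 on that array.

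The first question was when each gene left the level of the reference. Of the 9 genes, 0 lay at least 2-fold above the reference on the 0 h and 9.5 h arrays, against 0% and 0.499% of all genes. The count was 2 at 11.5 h against 0.582%, and 4 on both the 13.5 h and 15.5 h arrays against 1.62% and 3.58%. It was 3 on both late arrays, against 11.9% at 18.5 h and 11% at 20.5 h. On the late arrays 0 of the 9 lay 2-fold below it, against 11.7% of all genes at 18.5 h and 11.4% at 20.5 h. SPI1 and CWP1 were the pair past 2-fold at 11.5 h, with SED1 and CWP2 joining at 13.5 h. Less their own 0 h values of 0.35 and 0.18, SED1 and CWP2 stood at 0.90 and 0.86 at 13.5 h, short of 2-fold. By that measure SED1 was past 2-fold from 15.5 h (1.42) and CWP2 at no time. By 18.5 h CWP1 and CWP2 were back within 2-fold of the reference, and TIP1 stood with SPI1 and SED1. Measured against the reference, SPI1 and SED1 thus left it early and stayed high, and TIP1 left it only after glucose had run low. CWP1 and CWP2 were 2-fold above it only while glucose was being used, and the other 4 stayed within 2-fold on all 7 centred arrays. As deposited, without centring, 4 genes were 2-fold above at 13.5 h, against 1.54% of all genes. At 15.5 h 3 were, with CWP2 short of it, against 3.35%. On each late array 4 were, against 17.3% at 18.5 h and 14.9% at 20.5 h. CCW14 was added at 18.5 h and HSP150 at 20.5 h. RNA of whole cultures was measured, so fewer cells with a transcript and less transcript per cell cannot be told apart. Time, OD and glucose moved together and cannot be told apart either.

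**Figure D1:**
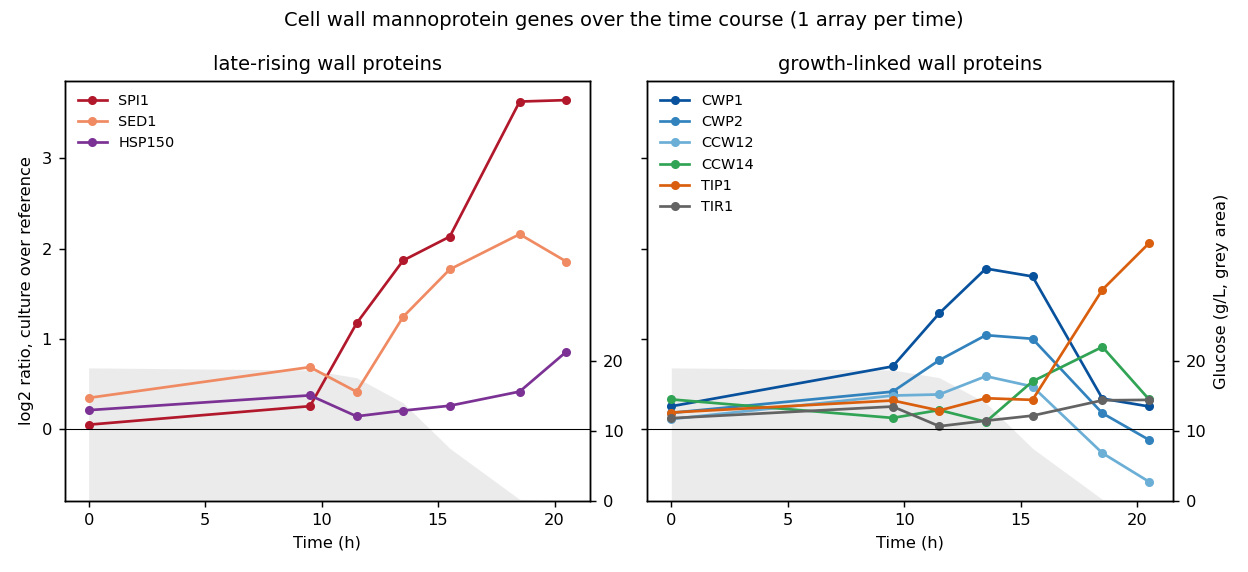
Log2 ratio of culture over reference (left axis) against time in hours for the 3 late-rising genes (left panel) and the 6 growth-linked genes (right panel), 1 point per array, with glucose in the medium as the grey area (right axis, g/L). SPI1 reaches 3.65 at 20.5 h, while CWP1 peaks at 1.78 at 13.5 h and is at 0.25 at 20.5 h.

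Among the late-rising genes, SPI1, a GPI wall protein known for its part in resistance to weak acids, moved furthest. Its log2 ratios were 0.05 (0 h), 0.26 (9.5 h), 1.17 (11.5 h), 1.87 (13.5 h), 2.13 (15.5 h), 3.63 (18.5 h) and 3.65 (20.5 h). It was well above the reference while 17.6 g/L of glucose remained, climbed again between 15.5 and 18.5 h, and then stayed level. In fold terms SPI1 was 12.5-fold above the reference at 20.5 h. The trend test was a straight line fitted with limma to each of the 4807 genes with 7 values, on the share of glucose consumed, with p-values adjusted over all of them and a threshold of 0.05. The fitted log2 change of SPI1 over the consumption of glucose was 3.17 ± 0.31 (SE, 7 arrays; limma adjusted p = 0.000154), a 9.02-fold rise.

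SED1, a major structural GPI protein of stationary-phase walls, also rose. Its log2 ratios were 0.35 (0 h), 0.69 (9.5 h), 0.42 (11.5 h), 1.25 (13.5 h), 1.77 (15.5 h), 2.16 (18.5 h) and 1.86 (20.5 h). Most of the rise lay before glucose ran out: the log2 difference of 15.5 h minus 0 h was 1.42, and that of 20.5 h minus 15.5 h was 0.09. The fitted log2 change was 1.58 ± 0.24 (SE; limma adjusted p = 0.000815). SED1 and SPI1 passed under all 15 alternative settings, with limma adjusted p-values up to 0.0414 for SED1 and 0.0377 for SPI1. Taking first spots or admitting blanks cannot move the fitted change of any member, since each has 1 spot and a value on every array.

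HSP150, a secreted O-mannosylated protein of the PIR family, did not pass. It had log2 ratios of 0.21 (0 h), 0.38 (9.5 h), 0.14 (11.5 h), 0.21 (13.5 h), 0.26 (15.5 h), 0.42 (18.5 h) and 0.86 (20.5 h). Only the 20.5 h value stood off from the rest, and the fitted log2 change was 0.39 ± 0.21 (SE; limma adjusted p = 0.163). Without the 20.5 h array the fitted change was 0.15 (adjusted p = 0.601; 0.0658 to 0.601 over the 15 alternatives). HSP150 lies between the related PIR genes PIR5 and CIS3 on the chromosome. Beside it, CIS3 fell, with a fitted log2 change of -1.21 ± 0.30 (SE; limma adjusted p = 0.00963), and PIR5 was at -0.70 ± 0.27 (adjusted p = 0.0598). The call of CIS3 was lost without the 18.5 h or the 20.5 h array. Of the other PIR genes, PIR3 rose by 0.85 ± 0.26 (adjusted p = 0.0252), also lost without either late array, and PIR1 was at -0.21 ± 0.18 (adjusted p = 0.365). These genes are similar in sequence, and how much signal their spots share was not tested.

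Among the growth-linked genes, CWP1 and CWP2 were high in the middle of the course and back near their starting values at its end. Both encode GPI wall mannoproteins, CWP1 being known from birth scars and CWP2 as an abundant component of the wall. CWP1 had log2 ratios of 0.25 (0 h), 0.70 (9.5 h), 1.29 (11.5 h), 1.78 (13.5 h), 1.69 (15.5 h), 0.34 (18.5 h) and 0.25 (20.5 h). CWP2 had 0.18 (0 h), 0.42 (9.5 h), 0.77 (11.5 h), 1.04 (13.5 h), 1.002 (15.5 h), 0.18 (18.5 h) and -0.12 (20.5 h). The last value was 0.07 as deposited, without centring, so its side of 0 depends on the centring. Both genes were highest at 13.5 h, kept close to that level at 15.5 h with 7.5 g/L glucose left, and were near their 0 h values once glucose was at 0.2 g/L. On the log2 scale CWP1 changed by -1.35 and CWP2 by -0.83 in 18.5 h minus 15.5 h. CWP1 stood above CWP2 on all 7 arrays, with CWP1 minus CWP2 at 0.07 (0 h), 0.28 (9.5 h), 0.52 (11.5 h), 0.74 (13.5 h), 0.69 (15.5 h), 0.16 (18.5 h) and 0.37 (20.5 h).

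A course that goes up and returns has little slope against glucose, and neither gene passed the trend test. The fitted log2 change was -0.40 ± 0.49 for CWP1 (SE; limma adjusted p = 0.540) and -0.39 ± 0.34 for CWP2 (adjusted p = 0.377). With hours or log2 OD in place of glucose the fitted change of CWP1 was 0.22 and 0.16. A curved fit, with a squared term in the glucose consumed, was added after the data had been seen. The squared term was -6.23 ± 0.98 for CWP1 (SE; limma adjusted p = 0.0807), with the 5th smallest p of 4807 genes, and -3.95 ± 0.84 for CWP2 (adjusted p = 0.116). It passed adjustment in 0 of the 9 genes, against 3 of all 4807 (0.0624%). At an unadjusted p under 0.05 it did so in 4 of the 9, against 15.1% of all genes, counting terms of either sign. The term was negative in CWP1, CWP2 and CCW12 and positive in TIP1, whose course thus bent the opposite way. CWP1 and CWP2 are immediate neighbours on the chromosome, and their spots carry consecutive probe IDs. Their log2 ratios over the 7 arrays had a Pearson r of 0.98, and whether the spots share signal was not tested.

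CCW12, a main structural wall protein of growing cells, followed a smaller curve that ended below the reference. It had log2 ratios of 0.11 (0 h), 0.37 (9.5 h), 0.39 (11.5 h), 0.59 (13.5 h), 0.47 (15.5 h), -0.27 (18.5 h) and -0.58 (20.5 h). The 5 arrays with glucose at 7.5 g/L or more were all above 0, as they were for all 9 genes, and both late arrays were below it. The 18.5 h value of CCW12 was -0.05 as deposited, without centring, and was smaller in size than the spot SD of 0.45 on that array. The fitted log2 change of -0.70 ± 0.27 did not pass (SE; limma adjusted p = 0.0624; 0.00746 to 0.410 over the 15 alternatives). It passed at -0.81 when the arrays at 0.2 g/L or less were set against the other 5 (adjusted p = 0.00746), and at -0.78 without the 15.5 h array (adjusted p = 0.0209). Its squared term was -2.79 ± 0.81 (limma adjusted p = 0.159).

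TIP1, a mannoprotein known for induction by temperature shock, behaved unlike the class it was put in. Its log2 ratios were 0.19 (0 h), 0.32 (9.5 h), 0.21 (11.5 h), 0.34 (13.5 h), 0.33 (15.5 h), 1.55 (18.5 h) and 2.06 (20.5 h). It stayed within 0.19 to 0.34 on the 5 arrays at 7.5 g/L glucose or more and was high on both arrays at 0.2 g/L or less, so by its values the name late-rising describes it better than growth-linked. Its log2 differences were 0.14 in 15.5 h minus 0 h and 1.74 in 20.5 h minus 15.5 h, where SED1 had 1.42 and 0.09. The fitted log2 change of TIP1 was 1.53 ± 0.30 (SE; limma adjusted p = 0.00314; 0.000278 to 0.0803 over the 15 alternatives). The call was lost with hours in place of glucose (1.67, adjusted p = 0.0803) or log2 OD (1.52, adjusted p = 0.0514).

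**Figure D2:**
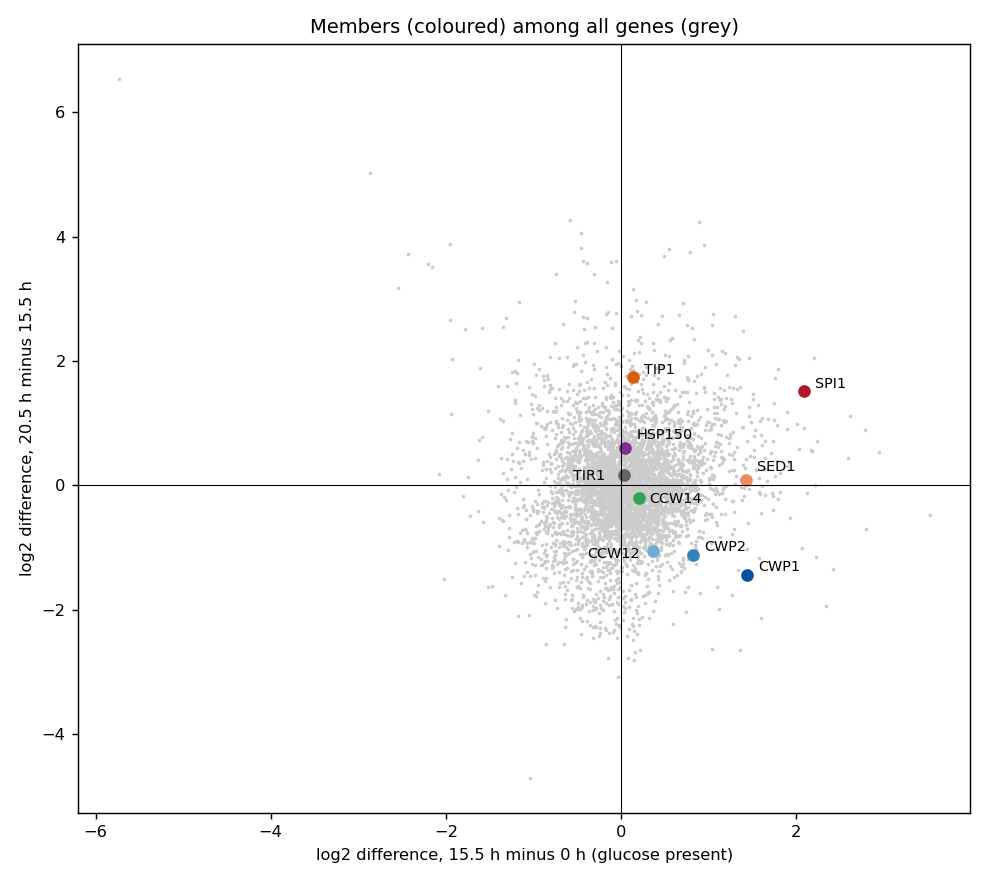
For each gene, the log2 difference of 15.5 h minus 0 h (x axis, log2 units) and of 20.5 h minus 15.5 h (y axis, log2 units), with the 9 members coloured and all 4807 genes in grey. The 15.5 h array enters both axes. SPI1 is up on both (2.08 and 1.51), SED1 on the x axis (1.42), TIP1 on the y axis (1.74), and CWP1 is up and then down (1.44 and -1.44).

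CCW14, a protein of the inner layer of the wall, and TIR1, known for induction by cold and by lack of oxygen, moved little. CCW14 had log2 ratios of 0.33 (0 h), 0.13 (9.5 h), 0.21 (11.5 h), 0.08 (13.5 h), 0.53 (15.5 h), 0.91 (18.5 h) and 0.33 (20.5 h). The 18.5 h value stood highest, and the gene was back at its 0 h value at 20.5 h. Its fitted log2 change was 0.45 ± 0.22 (SE; limma adjusted p = 0.133; 0.0302 to 0.538 over the 15 alternatives). It passed after centring within runs of 40 probe IDs (0.78, adjusted p = 0.0302) and without the 20.5 h array (0.70, adjusted p = 0.0476), and without the 18.5 h array it was 0.21. TIR1 had 0.12 (0 h), 0.25 (9.5 h), 0.03 (11.5 h), 0.09 (13.5 h), 0.15 (15.5 h), 0.32 (18.5 h) and 0.33 (20.5 h). Its whole range of 0.29 was below the spot SD of 0.45 at 18.5 h, and the fitted log2 change was 0.19 ± 0.18 (SE; limma adjusted p = 0.434). Relatives of TIR1 were not called either, with TIR2 at -0.25 ± 0.18 (adjusted p = 0.286), TIR3 at -0.61 ± 0.28 (adjusted p = 0.104) and TIR4 at -0.33 ± 0.28 (adjusted p = 0.375).

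By the trend with glucose consumed, then, 3 of the 9 genes rose, namely SPI1, TIP1 and SED1, against 19.5% of all 4807 genes, and 0 fell, against 19%. At an unadjusted p under 0.05 (limma) 3 genes had a positive slope, against 24.8% of all genes, and 1, CCW12, a negative one, against 23.7%. The median fitted log2 change was 0.39 over the 9 genes and 0.02 over all genes. The fit tests the scatter of 7 single samples about a line and treats neighbouring times as independent, so its errors may be too small.

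**Figure D3:**
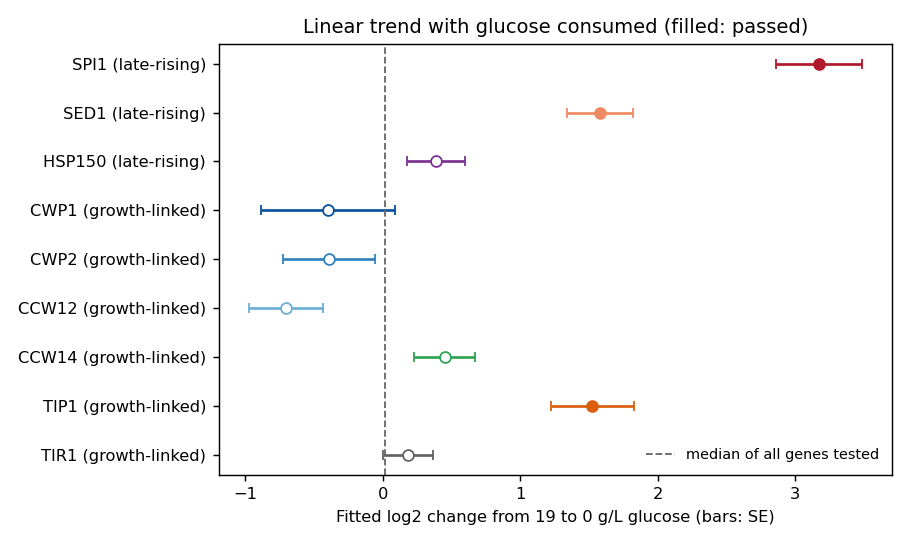
Change fitted over the fall of glucose to 0 g/L (x axis, log2 units) for the 9 genes, with bars of 1 SE and filled points for the 3 that passed. SPI1 is at 3.17, SED1 at 1.58 and TIP1 at 1.53, while the bars of CWP1 and TIR1 cross the dashed median of all genes at 0.02.

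The second question was whether the late-rising genes parted from the growth-linked ones. On the log2 scale the mean of the 3 late-rising genes minus the mean of the 6 growth-linked genes was 0.01 (0 h), 0.08 (9.5 h), 0.10 (11.5 h), 0.45 (13.5 h), 0.69 (15.5 h), 1.56 (18.5 h) and 1.74 (20.5 h). Up to 11.5 h the class means were about level. The gap was 0.69 by 15.5 h, with 7.5 g/L glucose left, and its largest step lay between 15.5 and 18.5 h. In that step SPI1 changed by 1.497, SED1 by 0.39 and HSP150 by 0.16, while the growth-linked mean went from 0.70 to 0.50. At 20.5 h the late-rising genes had a mean of 2.12 and lay between 0.86 and 3.65, and the growth-linked genes had a mean of 0.38 and lay between -0.58 and 2.06. The classes overlapped on all 7 arrays. At 20.5 h the overlap was TIP1 alone, which stood above HSP150 and SED1, and at 15.5 h 5 of the 6 growth-linked genes were above HSP150. These means rest on few genes with unlike courses and were not tested. The classes were set with earlier results of these data known, so part of the gap may be built into the choice. Of the growth-linked genes CWP1, CWP2 and CCW12 were highest at 13.5 h, CCW14 at 18.5 h, and TIP1 and TIR1 at 20.5 h. HSP150, set down as late-rising, did not pass the trend test.

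**Figure D4:**
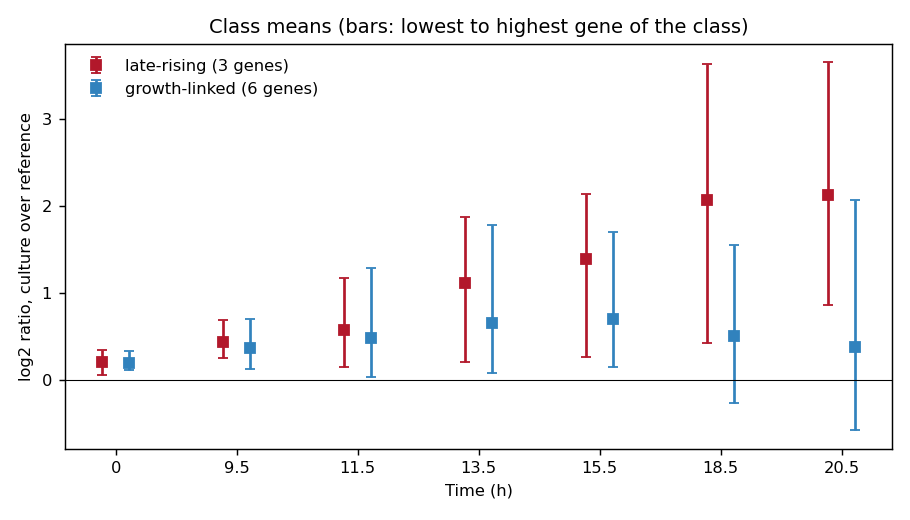
Mean log2 ratio of the 3 late-rising genes (red) and the 6 growth-linked genes (blue) on each array, against time in hours, with bars from the lowest to the highest gene of the class. The means are 2.12 and 0.38 at 20.5 h, and the bars overlap at all 7 times.

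While glucose was still present, in 15.5 h minus 0 h, SPI1 (2.08), CWP1 (1.44) and SED1 (1.42) were at least 2-fold higher, against 4.51% of all genes, and 0 of the 9 were 2-fold lower, against 2.81%. Between 15.5 h and 18.5 h, when glucose went to 0.2 g/L from 7.5 g/L, SPI1 (1.497) and TIP1 (1.22) changed at least 2-fold upward, against 9.94% of all genes, and CWP1 (-1.35) changed at least 2-fold downward, against 9.32%. The other 6 lay between CWP2 at -0.83 and SED1 at 0.39. In 20.5 h minus 18.5 h 0 of the 9 changed 2-fold in either direction, against 3.25% of all genes upward and 2.04% downward, with CCW14 at -0.58 and TIP1 at 0.52 as the extremes. In 20.5 h minus 15.5 h CWP1 (-1.44), CWP2 (-1.12) and CCW12 (-1.06) were at least 2-fold lower, against 9.44% of all genes, and TIP1 (1.74) and SPI1 (1.51) at least 2-fold higher, against 10.1%. Of the 9 genes 3 had their highest value at 13.5 h, and 16.2% of all genes had theirs at 13.5 or 15.5 h. The other 6 were highest on a late array, 2 at 18.5 h and 4 at 20.5 h, against 45.8% of all genes.

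Across the 7 arrays the 36 pairs of members had Pearson r from -0.92 (TIP1 with CCW12) to 0.98 (CWP1 with CWP2). The 8 pairs above 0.8 joined CWP1, CWP2 and CCW12 among themselves, TIP1, TIR1 and HSP150 among themselves, SED1 with SPI1, and TIP1 with SPI1. All genes share the 7 arrays and the common reference, so these values describe likeness of course only. Among all 4807 genes the closest to SPI1 was YGP1 (r = 0.996), followed by SDH4 and MSC1 (both 0.995). For SED1 they were GAL2 and NAM9 (both 0.992) and PNC1 (0.988), and for TIP1 ACH1 (0.994), SPG4 (0.992) and LPX2 (0.991). For CWP1 they were CWP2 (0.977), MTC2 (0.964) and CPT1 (0.946), and for CWP2 PGK1 (0.979), CWP1 (0.977) and MSS116 (0.972). CCW12 was closest to TDH3 (0.994), SEC27 (0.977) and VPH1 (0.974). For the genes with a small range the neighbours were ARC18, UFD1 and TMA22 for CCW14, ZTA1, FMP45 and RTC1 for TIR1, and YGL235W, FLO10 and ART5 for HSP150, with r from 0.972 to 0.988. The number of genes with r above 0.95 was 149 for SPI1, 95 for TIP1, 66 for SED1, 36 for CCW12, 15 for HSP150, 11 for CWP2, 9 for CCW14, 3 for TIR1 and 2 for CWP1. How common an r above 0.8 or 0.95 is among all genes was not counted, so these counts have no background.

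The rest of the wall was read from 6 lists with 151 other wall genes, of which 150 were on the arrays and 128 had a value on all 7. Of the 128, 10 rose and 35 fell (limma, adjusted over all genes), against 19.5% and 19% of all genes, with a median fitted log2 change of -0.25. These counts depend on both late arrays and on the predictor, as do those of all genes, of which 936 rose and 913 fell. Without the 18.5 h array 4 rose and 15 fell, against 593 and 638 of all genes. Without the 20.5 h array 7 rose and 20 fell, against 720 and 737. Leaving out the 0 h array gave 6 risen, against 659 of all genes, and leaving out the 9.5 h array gave 4, against 675. With hours in place of glucose 2 rose and 1 fell, against 266 and 233 of all genes. With log2 OD 6 rose and 6 fell, against 597 and 512. The counts by list that follow under these settings are to be read beside these counts of all genes. As deposited, without centring, where the median of all genes had a fitted change of 0.20, 14 of the 128 rose and 26 fell, and 1223 of all genes rose and 708 fell.

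Enzymes that remodel the wall, mostly by cutting or rejoining glucan, had the lowest list median, at -0.84. Of 22 measured 12 fell, against 19% of all genes, and 1 rose, against 19.5%. Of the 22, 8 fell without the array of 18.5 h and 7 without that of 20.5 h. With hours in place of glucose 0 of the 22 fell, and with log2 OD 3 did. EXG1, the main exoglucanase, fell by 1.65 ± 0.43 (SE; limma adjusted p = 0.0129; lost without either late array), and GAS1, a glucan elongase, fell by 1.58 ± 0.35. DSE4 and SCW11, glucanases linked to the separation of daughter cells, fell too, with fitted changes of -1.54 ± 0.27 and -1.46 ± 0.19. The list had a median log2 ratio of -0.53 at 20.5 h, against 0.52 at 11.5 h. EXG1 stood at -1.51 at 20.5 h, against 0.94 at 11.5 h, and GAS1 at -1.10, against 0.84.

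Genes of the machinery that puts mannose on proteins were among those that fell. The list had 27 measured genes, of which 12 fell, against 19% of all genes, and 1 rose, against 19.5%. The list median was -0.61, and 5 fell without the array of 18.5 h and 8 without that of 20.5 h. With hours 0 of the 27 fell, and with log2 OD 2 did. VRG4, which brings GDP-mannose into the Golgi, fell by 1.86 ± 0.30 (SE; limma adjusted p = 0.00111). SEC53 and PSA1, which make the mannose donor, fell, with fitted changes of -1.61 ± 0.25 and -1.47 ± 0.30, and MNN11, part of a Golgi mannosyltransferase, fell by 1.57 ± 0.26. The median log2 ratio of the list was -0.51 at 20.5 h, against 0.20 at 15.5 h, so it was low on the late arrays on which SPI1 and TIP1 were highest.

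Of 27 other structural wall proteins measured 5 rose and 5 fell, shares of 18.5% each that are near those of all genes. YGP1, a secreted glycoprotein known from nutrient limitation, rose by 2.52 ± 0.25 (SE; limma adjusted p = 0.000154). FIT3, a mannoprotein of iron uptake, rose by 1.09 ± 0.32 (adjusted p = 0.0229), a call lost without the 11.5 h, 18.5 h or 20.5 h array. EGT2, known from cell separation after division, fell by 2.03 ± 0.23 (adjusted p = 0.000237). Without the 18.5 h array 1 rose and 2 fell, without that of 20.5 h 1 rose and 3 fell, without that of 9.5 h 3 rose and 3 fell, and without that of 11.5 h 3 rose. With hours 1 rose and 1 fell, and with log2 OD 3 rose and 1 fell.

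The 3 remaining lists held few calls in number, and the shares of all genes were 19.5% risen and 19% fallen. With hours or log2 OD in place of glucose 0 genes fell in any of the 3, and 1 rose in wall integrity signalling and 0 in the others. In glucan and chitin synthesis 2 of 17 rose (11.8%) and 3 fell (17.6%, near the share of all genes). KRE6, a gene of glucan synthesis, was at -0.96 ± 0.31 (SE; limma adjusted p = 0.0333). The chitin synthase genes were at -0.80 ± 0.26 (CHS1) and -0.69 ± 0.20 (CHS2), and KNH1 at 0.65 ± 0.21. Without the 18.5 h or the 20.5 h array 0 of that list fell, leaving out any of the other arrays but that of 15.5 h gave 1 fallen, and 0 rose in any of these omissions but that of the 18.5 h array, where 1 rose. In wall integrity signalling 1 of 15 rose and 1 fell (6.67% each). ROM1, an activator of the Rho1 switch protein, rose by 2.27 ± 0.25 (limma adjusted p = 0.000208). It passed under all 15 alternatives, though its fitted change was the same with first spots or with blanks admitted. MKK2, a kinase of the pathway, was at -0.59 ± 0.21 (adjusted p = 0.0464), a call that held in the omission of the 15.5 h array and of no other. In the synthesis of GPI anchors 0 of 20 rose and 2 (10%) fell, MCD4 at -0.71 ± 0.20 and GPI8 at -0.69 ± 0.21 (limma adjusted p = 0.0195 and 0.0238). Of that list 0 fell without the 9.5 h or the 18.5 h array and 1 without that of 0 h or 20.5 h. As deposited, without centring, the calls of KRE6, CHS1, MKK2 and GPI8 were lost (limma adjusted p = 0.0513 to 0.0969). Those of CHS2, KNH1, ROM1 and MCD4 held. In glucan and chitin synthesis 3 then rose and 1 fell.

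**Figure D5:**
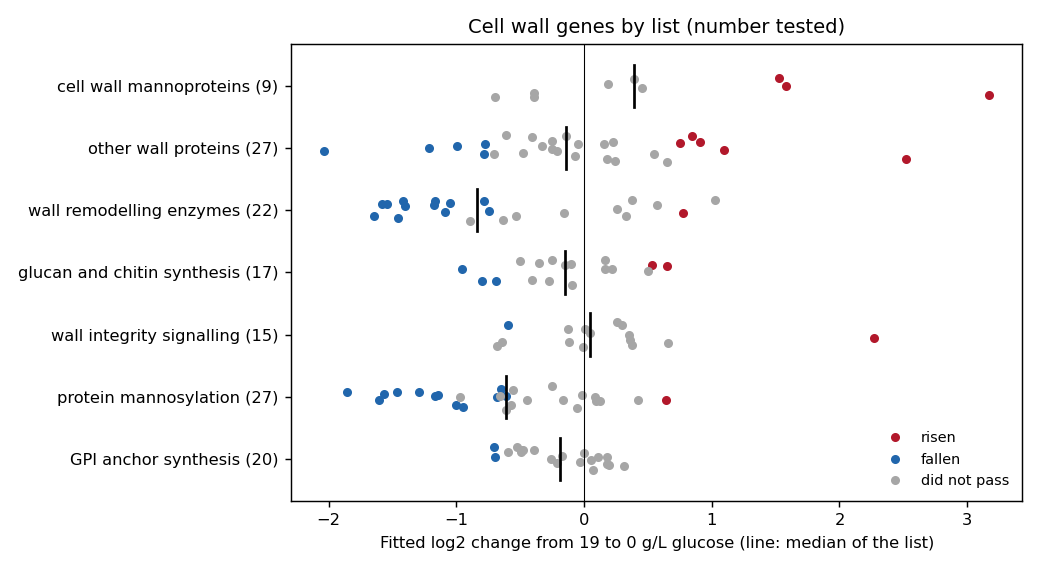
Change fitted over the fall of glucose to 0 g/L (x axis, log2 units) of each measured gene of the 9 mannoproteins (top row) and of the 6 lists of other wall genes, coloured by call, with the median of each list as a black line. The medians are 0.39 for the mannoproteins, -0.84 for the remodelling enzymes and -0.61 for protein mannosylation.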

How the data were processed

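The authors deposited a log ratio of both channels per probe, from ScanAlyze 2.41 scans per the labels; the sources used here do not give background correction, dye normalization or spot filter. They were read as log2: of the deposited ratios between 8 and 120, 6 were whole numbers within rounding against 1.28 expected, while natural log gave 9 against 9.38 and log10 240 against 233. Of 6400 probes, 5548 had 1 gene symbol, 0 several and 852 none; all 5548 matched a RefSeq gene table (assembly R64) by gene ID. That table gave names and chromosomal neighbours. Arrays were centred on their medians (-0.03 to 0.22 as deposited) and spots of 1 gene averaged. The 4807 genes with 7 values entered limma 3.58.1 (lmFit, eBayes; R 4.3.3), a regression on the consumed share of the initial glucose, with Benjamini-Hochberg adjustment over all of them and a threshold of 0.05. The fit was tested on simulated data with independent noise on each array, which cannot show whether neighbouring times make its errors too small. Settings tried were no centring, hours, log2 OD or glucose gone as predictor, centring within probe runs, blanks, first spots and arrays left out. Members, classes and lists were chosen with earlier results of these data known. Named wall genes are up to 4 called genes per list with the largest change, the 2 largest where fewer than 2 passed, and 3 nearest genes per member. PIR and TIR relatives outside that rule, namely PIR1, PIR3, PIR5, TIR2, TIR3 and TIR4, were named after their values were seen.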

Additional observations from a re-analysis of the deposited data

How the results depend on the processing

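No paired analysis was possible because each time point is 1 array and the labels give no replicate numbers. Leaving out 1 array gave 3 to 4 members risen and 0 to 1 fallen, 593 to 1139 of all genes risen and 638 to 1074 fallen, and 4 to 12 other wall genes risen and 15 to 45 fallen. Hours in place of glucose gave 266 genes risen and 233 fallen, with 2 and 1 among the other wall genes. Log2 OD gave 597 and 512, with 6 and 6. Both turned the sign of the uncalled CWP1, to 0.22 with hours and 0.16 with log2 OD. With glucose gone against present, 1 member (CCW12) fell. Leaving out 0 h and 9.5 h together, which was chosen after seeing the data, 372 genes rose and 429 fell, with 4 and 22 among the other wall genes, and SPI1, SED1 and TIP1 still passed. As deposited, without centring, the median gene had a fitted log2 change of 0.20 against 0.02, 1223 genes rose and 708 fell, and 14 and 26 other wall genes did. Centred within runs of probe IDs, the difference between the member classes was 0.73 (15.5 h), 1.43 (18.5 h) and 1.68 (20.5 h), against 0.69, 1.56 and 1.74 centred on the median. Omitting the centring cannot move it, since 1 constant is taken from all genes of an array, nor can taking the first spot, since each member has 1. The causes were not tested. Signal over background was not used here.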
